A study of Mus musculus with 23 samples.

Results

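The casein and milk protein genes described here are 8 genes taken by name from the 53402 gene identifiers of a mouse thymus RNA sequencing table. They are the 5 caseins Csn1s1, Csn1s2a, Csn1s2b, Csn2 and Csn3, and the whey and milk genes Wap, Lalba and Glycam1. All 8 were found in the table, and 5 (Csn1s1, Csn1s2a, Csn2, Csn3 and Wap) passed the filter on low counts and entered the tests. Csn1s2b, Lalba and Glycam1 did not pass and are given by their values. The sequenced total RNA came from mTECs, the epithelial cells of the thymic medulla, of C57BL/6 mice that were wild type (WT) or lacked Aire (Aire KO). Live cells that stained for EpCAM but neither for CD45 nor for Ly51 were sorted as high (mTEChi) or low (mTEClo) for MHC class II. The 23 libraries comprised 8 of WT mTEClo (5 male and 3 female, 5 from mice of 4 weeks and 3 of 5 weeks), 7 of WT mTEChi (5 male and 2 female, 2 from mice of 4 weeks and 5 of 5 weeks), and 4 of KO mTEClo and 4 of KO mTEChi. In each KO gate all 4 libraries were male, 2 of 5 weeks and 2 of 6 weeks, so male sex was shared by all KO libraries and age was not matched between the genotypes. The labels do not say what the Aire deletion removes or that libraries came from separate animals, so p-values measure the spread between these samples, which may be technical.

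Caseins are the main proteins of milk. In the lactating mammary gland, prolactin acts through its receptor, the kinase JAK2 and the transcription factors STAT5A and STAT5B, which bind casein promoters together with factors such as ELF5, the glucocorticoid receptor and C/EBP-beta. The caseins lie next to each other in the genome, assemble into micelles that carry calcium, and are known as tissue-restricted antigens in the thymus, where mTECs transcribe genes of peripheral organs and present their products to developing T cells. Many such genes are known to depend on Aire, a nuclear protein of mature mTECs.

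In GRCm38 all 5 caseins are protein-coding genes on chromosome 5. Csn1s1 (ENSMUSG00000070702, alpha-s1-casein) spans 87666208 to 87682578 on the plus strand. Csn2 (ENSMUSG00000063157, beta-casein) spans 87692624 to 87699630 on the minus strand and is transcribed toward Csn1s1. Csn1s2a (ENSMUSG00000061937, 87774567 to 87788797) and Csn1s2b (ENSMUSG00000061388, 87808082 to 87824426), which encode alpha-s2-like caseins, and Csn3 (ENSMUSG00000001622, 87925579 to 87932665), the kappa-casein that caps the micelle surface, are on the plus strand. Wap (ENSMUSG00000000381, whey acidic protein) lies on chromosome 11 at 6635482 to 6638637, minus strand. Lalba (ENSMUSG00000022991, alpha-lactalbumin, the regulatory subunit of lactose synthase) lies on chromosome 15 at 98480400 to 98482721, and Glycam1 (ENSMUSG00000022491, a mucin-like glycoprotein of milk and of high endothelial venules) at 103562759 to 103565081 on the same chromosome, both on the minus strand.

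Several properties of the gene models bear on the counts. The library chemistry keeps no strand, and the span of Csn3 overlaps that of the gene 1700066N21Rik on the opposite strand. Reads from bases that these 2 genes share cannot be told apart. Whether their exons overlap was not examined. The exons annotated for Csn2, retained introns included, cover 6926 of its 7007 bases, so its counts can include unspliced RNA. Of the 31-base words in each member's transcripts, between 0% (Csn1s2a, Wap, Lalba and Glycam1) and 2.63% (Csn3) also occur in transcripts of other genes.

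The promoters of Csn2, Csn1s1 and Csn1s2a are printed because these had the highest mean levels among the caseins of WT mTEChi, and 1 of them stayed high in KO mTEChi while the other 2 did not. Each is the RefSeq window (GRCm38.p6) from 250 bases before the start site to 30 bases from it, 5′ to 3′ on the gene's strand. Capitals mark matches to TTCNNNGAA, the palindromic core that STAT factors such as STAT5 are known to recognise.
Csn2 promoter, chr5:87699396-87699675, minus strand: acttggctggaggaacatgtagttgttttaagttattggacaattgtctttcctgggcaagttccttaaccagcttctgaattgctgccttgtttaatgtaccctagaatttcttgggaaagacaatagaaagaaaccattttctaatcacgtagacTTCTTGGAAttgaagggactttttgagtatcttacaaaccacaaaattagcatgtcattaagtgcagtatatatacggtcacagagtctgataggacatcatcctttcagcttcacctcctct
Csn1s1 promoter, chr5:87665958-87666237, plus strand: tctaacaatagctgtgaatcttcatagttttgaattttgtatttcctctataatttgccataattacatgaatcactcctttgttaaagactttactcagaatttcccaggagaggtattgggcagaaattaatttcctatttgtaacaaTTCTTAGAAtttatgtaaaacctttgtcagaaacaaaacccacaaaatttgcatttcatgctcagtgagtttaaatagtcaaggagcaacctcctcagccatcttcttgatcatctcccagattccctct
Csn1s2a promoter, chr5:87774200-87774479, plus strand: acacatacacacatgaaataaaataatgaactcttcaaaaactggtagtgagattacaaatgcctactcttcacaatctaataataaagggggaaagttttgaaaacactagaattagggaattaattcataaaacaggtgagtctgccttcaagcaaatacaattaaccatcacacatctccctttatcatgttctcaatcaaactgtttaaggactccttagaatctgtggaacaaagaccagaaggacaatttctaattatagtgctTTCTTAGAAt
Relative to the start site, the match begins at base -93 in Csn2 (TTCTTGGAA) and at base -100 in Csn1s1 (TTCTTAGAA). In Csn1s2a the word TTCTTAGAA begins at base 21 from the RefSeq start, which itself lies 117 bases upstream of the GENCODE start, while the RefSeq start of Csn2 lies 205 bases from its GENCODE one. Of the 6 members with a RefSeq window, 4 held the word, Glycam1 (TTCCCAGAA, at base -145) being the other, and Wap and Lalba held none. Of all 32817 promoter windows of 280 bases, 2569 (7.83%) held it. A match is a description of letters and was not tested as a binding site. The word was thus present in the window of Csn2, which stayed high without Aire, and in those of Csn1s1 and Csn1s2a, which did not.

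Library totals ranged from 1602125 to 3938588 counts. The 6 libraries below 2000000 counts were replicates 1 and 2 of each mTEClo group and of WT mTEChi, and no library of KO mTEChi was among them. In KO mTEClo and WT mTEChi these were also the younger libraries (5 and 4 weeks), so depth and age cannot be told apart within those groups. Aire, the check of the labels, was at 753 to 921 CPM (counts per 1000000 of the library total, scaled with edgeR) in WT mTEChi, 17.1 to 39.3 in KO mTEChi, 19.6 to 128 in WT mTEClo and 0 to 7.58 in KO mTEClo. Epcam, the epithelial surface protein of the sort, lay between 202 and 324 CPM in all libraries. Of 11 mTEC markers 10 matched a gene, and they summed to 1560.3 to 3087 CPM. Markers of other cells were present too. From WT to KO mTEChi the summed CPM ranges were 46.1 to 60.1 and 32.2 to 44.7 for 6 thymocyte markers, 27.9 to 35.8 and 43.1 to 50.9 for 4 B cell markers, and 109 to 152 and 75.5 to 111 for 6 dendritic cell and macrophage markers. They were 103 to 250 and 68.0 to 110 for 5 fibroblast markers, 41.1 to 66.4 and 20.05 to 25.4 for 4 endothelial markers, and 245 to 327 and 357 to 413 for 4 cortical epithelial markers. Ptprc, the CD45 gene, ranged from 9.64 to 35.9 and from 5.43 to 6.96. Members of a list did not always move together. From WT to KO mTEChi, mean CPM was 15.8 and 32.1 for Cd79b but 5.51 and 1.91 for Ms4a1. Ly75 stood at 191 and 328 but Enpep at 45.4 and 2.89. Cd68 stood at 22.5 and 46.5 but Adgre1 at 37.2 and 0.902, and Dcn at 30.3 and 76.6 but Col1a1 at 116 and 0.912. Pecam1 stood at 21.8 and 22.4 but Plvap at 22.0 and 0.685, and Cd4 at 26.5 and 28.8 but Cd8a at 5.51 and 0.871. No marker of these lists was at 0 in either mTEChi group, and the part of other cells in the results below was not tested.

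In WT mTEChi, Csn2 was the leading milk gene by far. Per kilobase of exon it stood at 59.2 ± 14.5 CPM (SD, n = 7), followed by Csn1s2a at 10.3 ± 3.02, and neither range over libraries reached the next gene. Wap (3.29 ± 1.85), Csn1s1 (3.19 ± 0.937) and Csn3 (2.95 ± 0.990) came next on this per-kilobase scale, and their ranges overlapped. Glycam1 stood at 0.988 ± 0.915, Csn1s2b at 0.378 ± 0.194 and Lalba at 0.0662 ± 0.175, each overlapping the one before it. This order rests on the summed length of all annotated exons, 6926 bases for Csn2, 6247 for Csn1s1 and 1008 for Wap. Without division by length, Csn1s1 had a mean of 19.9 CPM and Wap one of 3.32. In KO mTEChi the order differed. Csn2 again led, at 68.2 ± 5.67 CPM per kilobase (n = 4), and Csn3 was second at 2.08 ± 1.05, with no overlap to its neighbours in the order. Csn1s1 (0.108 ± 0.0917) and Csn1s2a (0.0828 ± 0.111) had the 2 lowest means of the 8 on this scale. The ranges of all genes after Csn3 overlapped the next in the order. Without division by length, Csn1s1 had a mean of 0.672 CPM, above Lalba (0.499) and Glycam1 (0.359). In both mTEClo groups Csn2 led without overlap, at 8.18 ± 2.20 per kilobase in WT (n = 8) and 17.1 ± 6.24 in KO (n = 4), and the ranges of all following neighbours in the order overlapped.

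**Figure D1:**
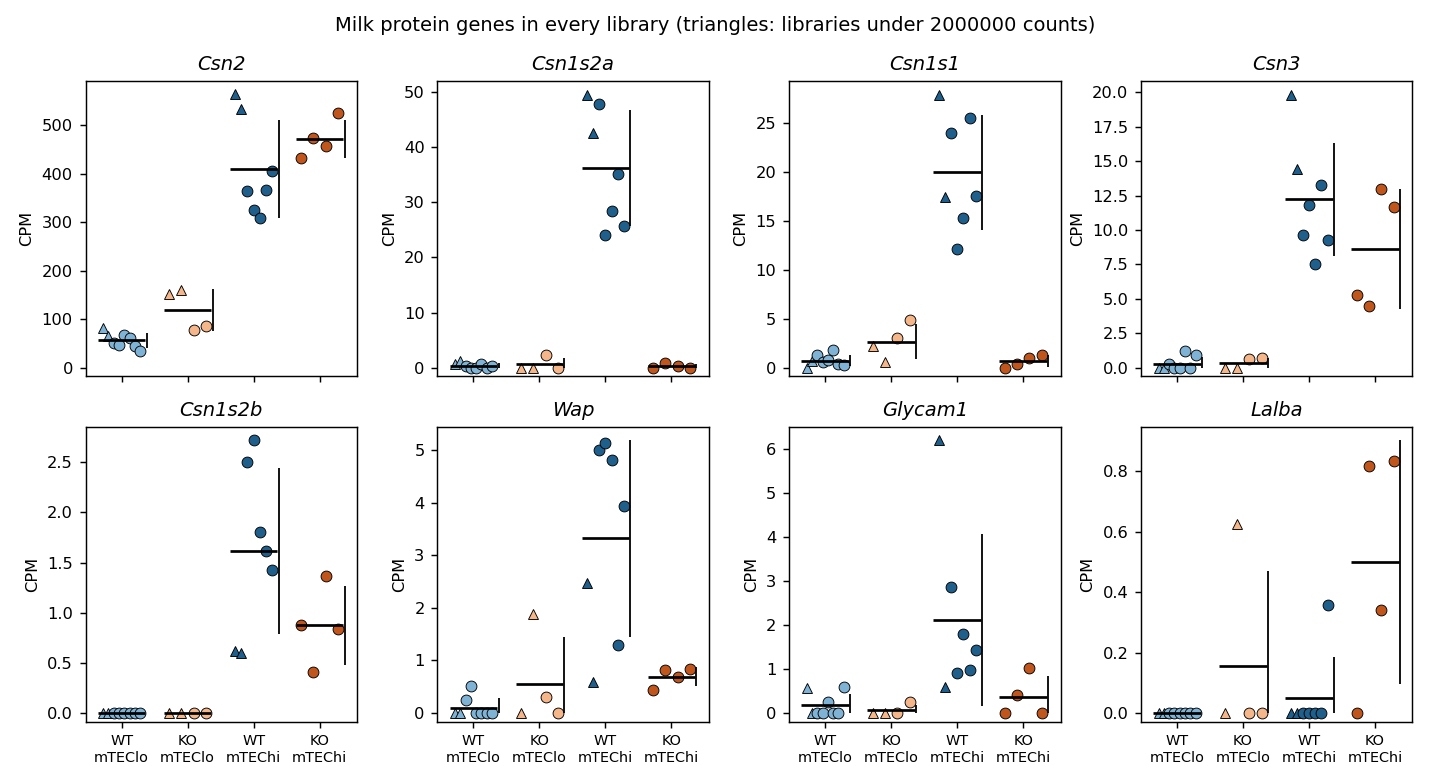
Levels of the 8 casein and milk protein genes in each of the 23 libraries, in CPM on a linear axis for each gene, by group. Triangles are libraries below 2000000 counts and circles the others, horizontal lines are group means and vertical lines the SD around them, drawn no lower than 0. Csn2 lies between 308 and 565 CPM in WT mTEChi and between 433 and 526 CPM in KO mTEChi, whereas Csn1s1 and Csn1s2a are near 0 in every KO mTEChi library.

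KO and WT mTEChi were compared first, since this gate holds most Aire. Csn1s1 and Csn1s2a were nearly absent, Wap was reduced, and Csn2 and Csn3 did not pass the test. Of the 8 genes, 5 were tested, 3 of them fell and 0 rose (0 at an unadjusted p under 0.05 and 0 with DESeq2), while 28.0% of all tested genes fell and 25.7% rose. Csn1s1, Csn1s2a and Wap passed the filter through WT mTEChi, where they are high, so this count is a description and nothing is read from it against the share of all 19310 tested genes. Because the libraries are bulk RNA, fewer cells with a transcript and less of it per cell cannot be told apart.

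Csn1s2a, an alpha-s2-like casein, ranged over the 7 WT mTEChi libraries from 24.2 to 49.6 CPM with a median of 35.2. The 4 KO mTEChi libraries stood at 0, 0.818, 0.342 and 0 CPM. All WT libraries were thus far above all KO libraries. Summed over libraries there were 641 counts in WT and 3 in KO, a 115-fold lower level in KO with an exact 95% counting interval of 39.2 to 559.9 that covers counting error only, as all such intervals here do. The edgeR quasi-likelihood test gave an adjusted p of 6.7e-11, adjusted by Benjamini-Hochberg over all tested genes as in every fit here. The means were 36.2 ± 10.6 CPM (n = 7) and 0.290 ± 0.387 CPM (n = 4).

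Csn1s1, the alpha-s1-casein needed for transport of the other caseins out of the endoplasmic reticulum, ranged from 12.1 to 27.9 CPM in WT mTEChi, with a median of 17.5. In KO mTEChi it stood at 0, 0.409, 1.03 and 1.25 CPM. The groups did not overlap, as was the case for 19.8% of all tested genes with KO below WT. The means were 19.9 ± 5.85 CPM in WT (n = 7) and 0.672 ± 0.573 CPM in KO (n = 4), and the log2 change was -4.93 ± 0.43 (SE) with adjusted p = 2.2e-10. The 2 KO libraries of 5 weeks were the 2 lowest.

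Wap, a major whey protein of rodents, was at 2.48, 0.600, 5.00, 5.13, 4.80, 1.29 and 3.93 CPM in WT mTEChi and at 0.439, 0.818, 0.685 and 0.835 CPM in KO mTEChi. WT replicate 2 lay within the KO range, and the other 6 WT libraries lay above it. Mean levels were 3.32 ± 1.87 and 0.694 ± 0.183 CPM, and Wap fell by 2.03 ± 0.65 on the log2 scale with adjusted p = 0.01 from 67 and 7 counts. All KO libraries were male, and the 2 female WT libraries were among the 3 highest (5.13 and 4.80 CPM). In a fit of male libraries alone Wap did not pass the filter, nor did it when WT mTEChi replicate 3, 4, 5 or 7 was left out, so the call was not available there.

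Csn2, the beta-casein, was at 433, 473, 457 and 526 CPM in KO mTEChi, and in WT mTEChi between 308 and 565 with a median of 366. The 4 KO libraries lay within the WT range. The means were 410.0 ± 101 CPM in WT (n = 7) and 472 ± 39.3 CPM in KO (n = 4), and the log2 change of 0.12 ± 0.19 did not pass (adjusted p = 0.64). The WT values split with the library totals. Replicates 1 and 2, below 2000000 counts and of 4 weeks, stood at 565 and 534 CPM, and the other 5 at 308 to 407, below every KO library. With the 6 libraries below 2000000 left out, the log2 change was 0.35 ± 0.12 with adjusted p = 0.016, with a term for them 0.39 (adjusted p = 0.0083), and with age in the fit 0.52 (adjusted p = 0.027). With upper quartile scaling it was -0.01. Under none of these did Csn2 fall as Csn1s1 and Csn1s2a did, whose log2 changes lay between -5.29 and -4.95 and between -6.99 and -6.72 in these 4 fits.

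Csn3, the kappa-casein, ranged from 7.50 to 19.8 CPM in WT mTEChi with a median of 11.8, and in KO mTEChi stood at 5.27, 4.50, 13.0 and 11.7 CPM. The 2 KO libraries of 5 weeks were below all WT libraries and those of 6 weeks were within their range. The means were 12.2 ± 4.11 and 8.62 ± 4.36 CPM, and the log2 change of -0.56 ± 0.35 did not pass (adjusted p = 0.18). With the 6-week KO libraries left out it was -1.39 ± 0.44, with adjusted p = 0.0094.

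Of the members that were not tested, Csn1s2b was at 0.600 to 2.72 CPM in WT mTEChi (median 1.61, 33 counts) and at 0.878, 0.409, 1.37 and 0.835 CPM in KO (9 counts), and the groups overlapped. Glycam1 was at 0.600 to 6.20 CPM in WT (median 1.43, 35 counts), and KO held 0, 0.409, 1.03 and 0 CPM (4 counts), again with overlap. In a fit without the filter, Glycam1 had a log2 change of -2.27 (adjusted p = 0.013) and Csn1s2b one of -0.72 (adjusted p = 0.43). Lalba, without which lactose is not made, was nearly absent: 1 count in 1 of 7 WT mTEChi libraries and 5 counts over 3 of 4 KO libraries, a 9.28-fold ratio with a 95% counting interval of 1.04 to 439. In the fit without the filter, Lalba had a log2 change of 2.21 ± 1.23 and did not pass (adjusted p = 0.18).

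**Figure D2:**
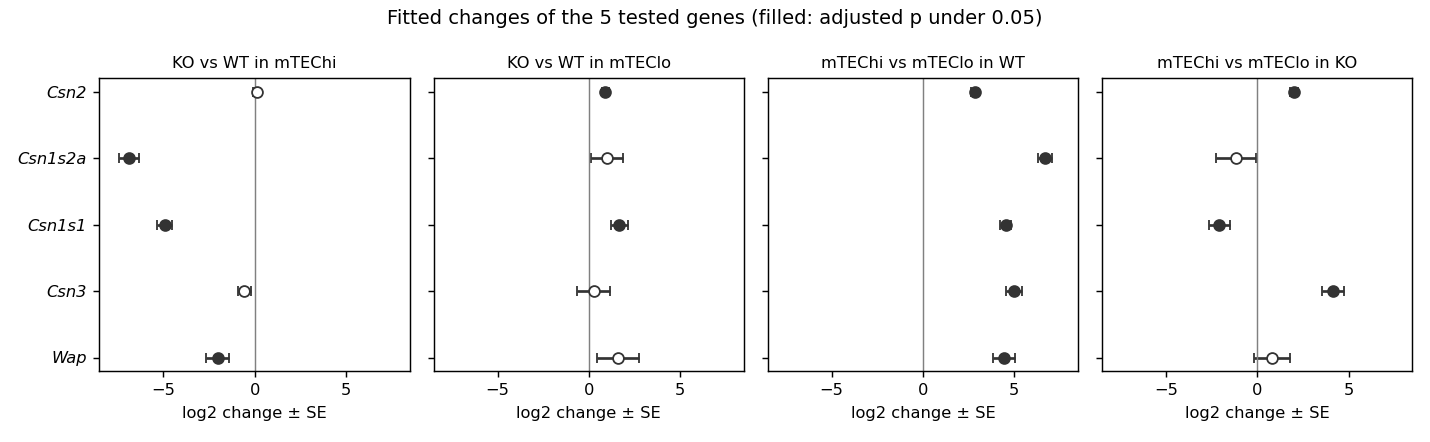
Log2 change with its SE of the 5 tested genes in each comparison, from edgeR's quasi-likelihood fit over all 23 libraries; filled points passed at an adjusted p under 0.05, and the horizontal axis is the log2 change. In mTEChi, KO against WT, Csn1s2a and Csn1s1 lie at -6.87 and -4.93 and Csn2 at 0.12.

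The unequal change can also be read within each library. Per 1000 counts of Csn2, the 7 WT mTEChi libraries held 32.6 to 69.7 counts of Csn1s1 (mean 49.6 ± 13.9) and the 4 KO libraries 0 to 2.38 (1.37 ± 1.14). For Csn1s2a the WT libraries held 63.2 to 131 (89.3 ± 21.7) and the KO libraries 0 to 1.73 (0.620 ± 0.820). For both ratios all 4 KO libraries were lower than all 7 WT libraries, which gave p = 0.0061 in a two-sided exact permutation test, the smallest p this design can give. Csn3 per 1000 counts of Csn2 was 22.8 to 36.2 in WT (29.7 ± 5.87) and 9.52 to 28.4 in KO (18.1 ± 8.82), with overlap and p = 0.048 in the same exact test. These 3 ratios were chosen after the values were seen and their p-values are not adjusted. For Csn1s1 and Csn1s2a the full separation already followed from the levels given above, so its p adds no support. As a share of the summed casein level per kilobase, Csn2 made up 72.1% to 82.2% in WT mTEChi and 94.7% to 97.9% in KO mTEChi.

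**Figure D3:**
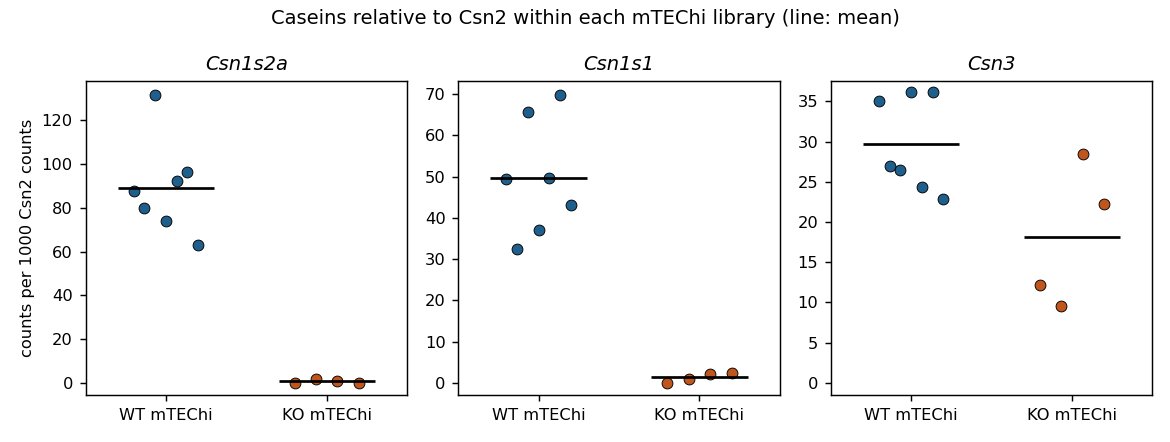
Counts of Csn1s1, Csn1s2a and Csn3 per 1000 counts of Csn2 in the same library, in WT and KO mTEChi; points are libraries and lines are group means. KO libraries hold at most 2.38 counts of Csn1s1 and 1.73 of Csn1s2a per 1000 of Csn2, against at least 32.6 and 63.2 in WT, while the Csn3 ratios overlap.

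Csn2 sits between genes of which several stood lower without Aire. Protein-coding neighbours were taken as those between the outer caseins and the 10 nearest on each side, 22 genes in all, of which 13 had more than 3 counts in WT mTEChi. All 13 had a lower summed level in KO mTEChi, and 8 of them were at 0 there. They were chosen by their counts in WT mTEChi, which by itself favours a lower level in KO. With few WT counts a 0 does not show a fall, as for Cabs1 (5 counts in WT, at least 0.898-fold lower). The 4 that passed the filter, Amtn, Ugt2b5, Sult1e1 and Sult1d1, all fell, beside 28.0% of all tested genes. These 4 passed it through the WT mTEChi group, so both counts are descriptions.

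Amtn, which encodes the enamel-organ protein amelotin 676.5 kb from the start of Csn2, was at 24.7 ± 4.79 CPM in WT mTEChi (n = 7, 451 counts) and listed at 0 in all 4 KO mTEChi libraries. Against a floor of 3 counts over the group this is at least 81.02-fold lower (adjusted p = 4.0e-11). Odam, a second enamel-organ gene that lies between Csn1s2b and Csn3, had 54 counts in WT and 3 in KO, a 9.70-fold ratio (95% counting interval 3.15 to 48.5), and was not tested. On the other side, the estrogen sulfotransferase gene Sult1e1, 108 kb from the start of Csn2 and next to Csn1s1 in the gene order used, fell from 5.44 ± 2.70 to 0.761 ± 0.445 CPM (log2 change -2.28 ± 0.52, adjusted p = 6.2e-04). Sult1d1, which encodes another sulfotransferase, fell from 11.7 ± 2.70 to 4.50 ± 3.76 CPM (log2 change -1.23 ± 0.46, adjusted p = 0.025), with overlapping libraries. Ugt2b5, a glucuronosyltransferase gene 559.3 kb away, had 69 counts in WT and 3 in KO, a 12.4-fold ratio (95% counting interval 4.07 to 61.6, adjusted p = 1.0e-04). Csn2 and Csn3 were thus the 2 tested genes of the region without a call in KO mTEChi.

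Around the genes on other chromosomes the picture was mixed. Of 17 neighbours of Wap, Lalba and Glycam1, 12 were tested, 3 fell and 4 rose, beside 28.0% lower and 25.7% higher among all tested genes. On 1 side of Wap, the nearest gene Ramp3 (a receptor activity modifying protein) rose from 10.5 ± 3.45 to 25.03 ± 3.72 CPM (log2 change 1.14 ± 0.21, adjusted p = 4.3e-05), and Adcy1 (an adenylate cyclase), 424.9 kb away, from 126 ± 20.9 to 532 ± 20.8 CPM (2.11 ± 0.14, adjusted p = 3.7e-12). Gm11983, which lies between them, was at 0.914 ± 0.534 CPM in WT, listed at 0 in KO and not tested. The other 2 that rose were Ccm2 (0.38 ± 0.14, adjusted p = 0.027), near Wap, and Kansl2 (0.34 ± 0.15, adjusted p = 0.049), near Lalba. The 3 that fell were all neighbours of Glycam1. Nckap1l, which encodes a regulator of actin in blood cells, had means of 56.3 ± 14.4 CPM in WT and 24.2 ± 7.82 in KO (log2 change -1.30 ± 0.26, adjusted p = 1.5e-04). Mucl2, a mucin-like gene 334.2 kb away, had means of 27.2 ± 4.85 and 0.214 ± 0.247 CPM (adjusted p = 2.1e-11). The mucin-like gene Mucl1, 190.4 kb away, fell from 7.89 ± 2.37 to 0.506 ± 0.223 CPM (log2 change -3.75 ± 0.51, adjusted p = 5.2e-07).

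**Figure D4:**
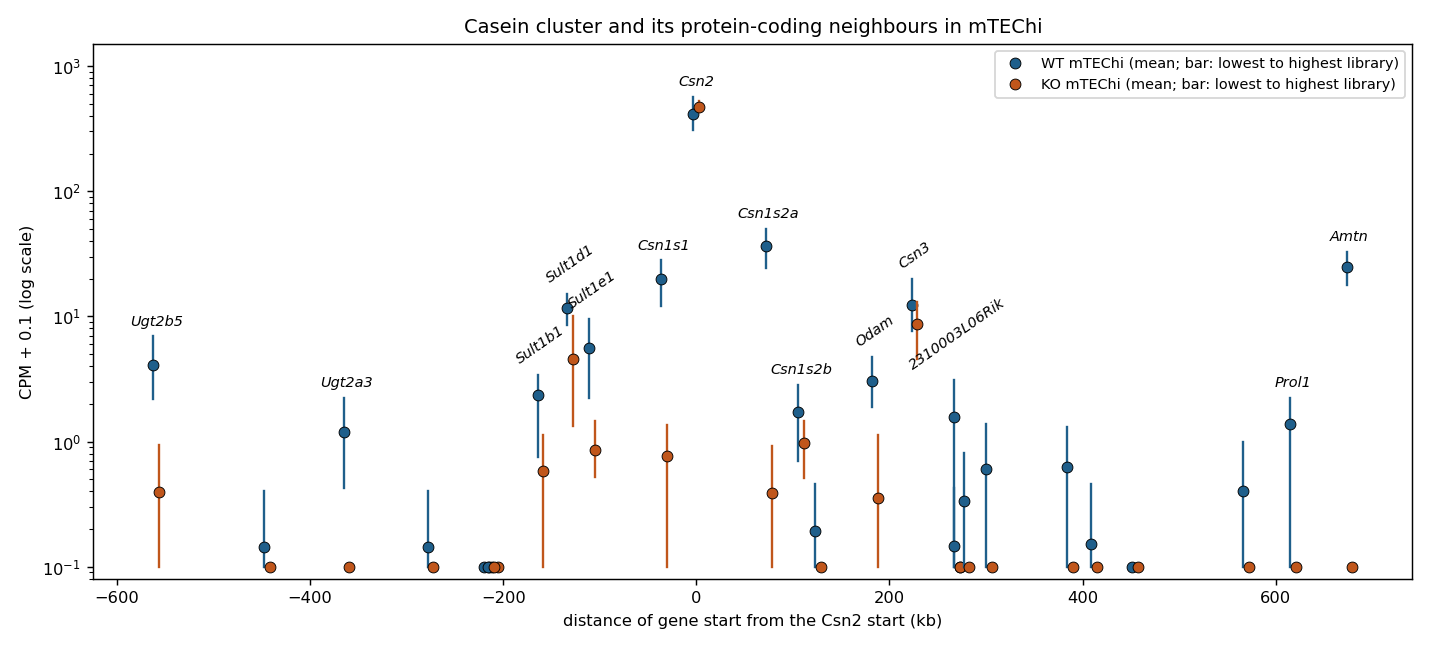
Mean level in WT mTEChi (n = 7) and KO mTEChi (n = 4) of the caseins and neighbouring protein-coding genes by distance in kb from the start of Csn2, as CPM + 0.1 on a log axis. Points are means, bars run from the lowest to the highest library, and genes with more than 15 counts in WT mTEChi carry a name. Csn2 stands at 410.0 CPM in WT and 472 in KO, while Csn1s1, Csn1s2a and Amtn, with WT means of 19.9, 36.2 and 24.7 CPM, are at 0.672, 0.290 and 0 in KO.

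In WT cells the caseins and Wap stood higher in mTEChi, the more mature population, than in mTEClo. All 5 tested members were called higher in WT mTEChi, where 36.7% of all tested genes were higher and 33.4% lower. None was lower (0 at an unadjusted p under 0.05 and 0 with DESeq2). Csn1s1, Csn1s2a, Csn3 and Wap passed the filter through mTEChi, whereas Csn2 was well counted in both gates. The count is therefore a description.

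Csn2 ranged from 34.8 to 82.7 CPM in WT mTEClo (median 55.3), below the lowest WT mTEChi library at 308. Its log2 difference between the gates was 2.82 ± 0.17 (adjusted p = 6.0e-13), the smallest of the 5. In mTEClo it was counted in every library, 1338 counts in all. Csn1s1 was at 0 to 1.83 CPM in WT mTEClo (median 0.580), with a log2 difference of 4.54 ± 0.30 (adjusted p = 6.5e-14), and Csn1s2a was at 0 to 1.27 CPM (6.69 ± 0.39, adjusted p = 6.7e-15). Csn3 was counted in 3 of 8 WT mTEClo libraries, at up to 1.22 CPM (4.97 ± 0.44, adjusted p = 4.2e-11). For all 4 of these caseins every mTEChi library lay above every mTEClo library, as did 24.8% of tested genes. Wap had 3 counts in WT mTEClo and 67 in mTEChi, a 29.5-fold ratio (95% counting interval 9.66 to 146, adjusted p = 1.6e-07). Csn1s2b was at 0 in all 12 mTEClo libraries and at least 14.5-fold higher in WT mTEChi, against 3 counts over the WT mTEClo group. The summed markers of cortical epithelium, fibroblasts, endothelium, B cells, thymocytes, and dendritic cells with macrophages also lay higher in every WT mTEChi library than in WT mTEClo. In mTEClo the ranges were 131 to 167 CPM for cortical epithelial, 49.0 to 78.5 for fibroblast, 9.07 to 16.7 for B cell, 4.58 to 12.9 for thymocyte, 14.1 to 22.9 for dendritic cell and macrophage and 3.06 to 7.72 for endothelial markers. Not all members of these lists went this way. Among fibroblast markers Col1a1 had means of 4.88 CPM in mTEClo and 116 in mTEChi, but Dcn 41.4 and 30.3 and Pdgfra 12.0 and 5.82. The cortical marker Prss16 stood at 39.6 and 32.1 CPM. The part of other cells in this difference was not tested.

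In KO cells the gates differed in another way. Of the 5 tested members, 2 were higher in KO mTEChi than in KO mTEClo and 1 was lower, against 29.2% and 28.0% of all tested genes. Csn2 was higher in mTEChi (log2 difference 2.03 ± 0.23, adjusted p = 4.5e-08) and so was Csn3 (4.15 ± 0.63, adjusted p = 1.5e-06), in both with every mTEChi library above every mTEClo library (25.0% of tested genes). Csn1s1 was lower in KO mTEChi, at 0 to 1.25 CPM, than in KO mTEClo, at 0.626 to 4.86 CPM, with a log2 difference of -2.07 ± 0.58 (adjusted p = 0.0031) and overlapping libraries. This call rests on 7 and 35 counts. Without the 6-week KO libraries it was -2.54 with adjusted p = 0.096, and in fits of the KO libraries alone, with or without the replicate number as a block, Csn1s1 did not pass the filter, so that 0 members were lower there. The blocked differences of Csn2 and Csn3 were 2.05 (adjusted p = 9.0e-05) and 4.32 (adjusted p = 2.0e-06). Csn1s2a (-1.17 ± 1.10, adjusted p = 0.38) and Wap (0.82 ± 0.98, adjusted p = 0.5) did not pass. Summed markers of other cells lay higher in every KO mTEChi library too for thymocytes (32.2 to 44.7 CPM against 3.76 to 5.95 in KO mTEClo), dendritic cells with macrophages (75.5 to 111 against 29.9 to 43.3), B cells (43.1 to 50.9 against 15.7 to 24.5), endothelium (20.05 to 25.4 against 6.89 to 10.3) and cortical epithelium (357 to 413 against 199 to 323). Of the 4 cortical markers, however, 1 was called higher in KO mTEChi and 3 lower. Mean Ly75 was 328 CPM in KO mTEChi against 129 in KO mTEClo, and Prss16 57.1 against 97.6. Not all members of the other lists were higher in KO mTEChi either. Mean Plvap was 0.685 CPM against 1.24 in KO mTEClo, and Kdr 0.188 against 0.541. Cd8a stood at 0.871 against 0.919 and Itgax at 0.294 against 0.541. The remaining thymocyte, endothelial, dendritic cell and macrophage markers had higher means in KO mTEChi, such as Pecam1 (22.4 against 6.70) and Cd4 (28.8 against 2.32). The part of other cells was not tested.

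In mTEClo, where Aire is low, 2 casein genes stood higher without Aire. Of the 5 tested members 2 rose and 0 fell (0 at an unadjusted p under 0.05 and 0 with DESeq2), against 12.0% and 9.69% of all tested genes. Summed markers of some other cells differed too. The summed range over libraries was 131 to 167 CPM in WT and 199 to 323 in KO mTEClo for the 4 cortical epithelial markers, and 14.1 to 22.9 and 29.9 to 43.3 for the 6 dendritic cell and macrophage markers, without overlap. It was 9.07 to 16.7 and 15.7 to 24.5 for B cell, 4.58 to 12.9 and 3.76 to 5.95 for thymocyte, 49.0 to 78.5 and 45.5 to 117 for fibroblast and 3.06 to 7.72 and 6.89 to 10.3 for endothelial markers. Of the cortical markers 3 were called higher and 0 lower, and of the dendritic cell and macrophage markers 1 and 0. The mean of Cd68 was 9.42 CPM in WT and 26.3 in KO, while those of Itgax, Csf1r and Adgre1 were lower in KO. In KO mTEClo the thymocyte marker Ptcra and the endothelial marker Cdh5 were at 0, and the part of other cells in the changes of Csn2 and Csn1s1 was not tested.

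Csn2 stood at 152, 159.7, 77.4 and 84.99 CPM in the 4 KO mTEClo libraries, and the 8 WT libraries ranged from 34.8 to 82.7. KO replicates 1, 2 and 4 lay above all WT libraries, and replicate 3 was within the WT range, so the groups overlapped. All KO libraries were above all WT libraries for 5.86% of tested genes and below them for 5.79%. The means were 56.7 ± 15.2 CPM in WT (n = 8) and 118 ± 43.2 CPM in KO (n = 4), with a log2 change of 0.91 ± 0.21 and adjusted p = 0.0036. Among libraries below 2000000 counts KO stood at 152 and 159.7 CPM against 64.9 and 82.7 in WT, and among the deeper ones at 77.4 and 84.99 against 34.8 to 67.7, so the ranges did not overlap within either class. Without the libraries below 2000000 the log2 change was 0.58 ± 0.16 (adjusted p = 0.012), and with age in the fit 1.40 ± 0.22 (adjusted p = 1.4e-04).

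Csn1s1 was at 2.17, 0.626, 2.98 and 4.86 CPM in KO mTEClo and at 0 to 1.83 CPM in WT mTEClo. KO replicates 1, 3 and 4 were above all WT libraries. The means were 0.708 ± 0.589 CPM in WT (n = 8) and 2.66 ± 1.76 CPM in KO (n = 4), and the level rose by 1.68 ± 0.46 on the log2 scale with adjusted p = 0.0091, from 19 and 35 counts. The call did not hold with age in the fit (1.14, adjusted p = 0.26), without the 6-week KO libraries (0.61, adjusted p = 0.6), without KO mTEClo replicate 4 (1.17, adjusted p = 0.13) or in the authors' normalized table with limma (0.85, adjusted p = 0.053).

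The remaining members gave few counts in mTEClo. Csn1s2a had 8 counts in KO mTEClo, all in replicate 3 (2.38 CPM), and 7 counts over the 8 WT libraries (log2 change 0.99, adjusted p = 0.45). Csn3 had 5 and 8 counts and Wap 4 and 3, and neither passed (adjusted p = 0.87 and 0.32). Lalba had 1 count in KO and 0 in WT, and Glycam1 1 and 4.

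The KO effects of the gates were compared in 1 contrast, mTEChi minus mTEClo. It called 3 of the 5 tested members lower and 0 higher (0 at an unadjusted p under 0.05 and 0 with DESeq2), against 14.0% and 10.8% of tested genes. Csn1s1 differed by -6.61 ± 0.65 on the log2 scale (adjusted p = 1.8e-08) and Csn1s2a by -7.86 ± 1.37 (adjusted p = 9.3e-05), although the latter was -3.77 with adjusted p = 0.93 without KO mTEClo replicate 3, which held all its counts in that group. Csn2 differed by -0.79 ± 0.28 (adjusted p = 0.038), and by -0.23 (adjusted p = 0.41) without the libraries below 2000000 counts. Its call was also lost when any 1 of 9 single libraries was left out, with an adjusted p of up to 0.1. Wap (-3.64 ± 1.38, adjusted p = 0.053) and Csn3 (-0.82 ± 1.06, adjusted p = 0.62) did not pass.

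Sex was compared within WT. None of the 5 tested members passed in edgeR or DESeq2, and 2 (Csn1s1 and Csn2, both lower in females) had an unadjusted p under 0.05. Over all tested genes 0.0259% were lower and 0.0155% higher in females.

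The genes whose pattern over the 23 libraries was most like that of Csn2 were sought among 15409 named genes, by the root mean square difference of log2 CPM after centring each gene. The 5 nearest were H2-Eb2 (0.286), Slc15a3 (0.291), Dpp10 (0.304), Rassf4 (0.315) and Dennd4a (0.323). H2-Eb2, an MHC class II gene, had mean levels of 53.5 CPM in WT and 126 in KO mTEClo and of 538 in WT and 543 in KO mTEChi, where Csn2 had 56.7, 118, 410.0 and 472 in the same order. The other tested members were further away. Csn3 ranked at 1513, Wap at 2367, Csn1s1 at 10179 and Csn1s2a at 13681.

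Genes that act on or with caseins in the mammary gland were taken from 4 lists, whose named members are the 4 with the smallest p in mTEChi. Of the lactation regulators, 24 of 25 were tested in KO against WT mTEChi, 7 fell and 7 rose, near the shares of all tested genes (28.0% lower and 25.7% higher), with a median log2 change of 0.06. Stat5b, which encodes a transducer of prolactin signals, rose from 146 ± 20.7 to 307 ± 18.1 CPM (1.10 ± 0.10, adjusted p = 6.5e-10). Elf5, a transcription factor required for alveolar differentiation, fell from 12.9 ± 4.47 to 2.53 ± 0.901 CPM (-2.26 ± 0.36, adjusted p = 7.6e-06). Erbb4, the neuregulin receptor, fell from 12.5 ± 2.36 to 0.171 ± 0.342 CPM (-5.79 ± 0.59, adjusted p = 3.6e-09), and Socs2, a feedback inhibitor of STAT5 signalling, from 38.6 ± 7.28 to 15.4 ± 1.71 CPM (-1.24 ± 0.16, adjusted p = 3.3e-07). The prolactin receptor gene Prlr, named for its place in the pathway and not by that rule, was at 48.6 ± 4.43 CPM in WT and 57.8 ± 11.3 in KO and did not pass (0.28 ± 0.17, adjusted p = 0.16).

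Of the other milk proteins, 21 of 22 were tested, 14 fell and 1 rose in KO mTEChi, with a median log2 change of -1.71. Among all tested genes 28.0% fell and 25.7% rose. In WT, 16 of the 21 were higher in mTEChi than in mTEClo. Some may have passed the filter through WT mTEChi, so this count is a description. Slpi, a secreted protease inhibitor, fell from 26.4 ± 6.59 to 1.01 ± 0.277 CPM (-4.76 ± 0.36, adjusted p = 1.7e-11). Spp1 (osteopontin) fell from 93.4 ± 12.7 to 4.68 ± 4.87 CPM (-4.25 ± 0.36, adjusted p = 1.5e-09), and Cel, the bile salt-stimulated lipase, from 18.0 ± 4.69 to 3.23 ± 0.593 CPM (-2.49 ± 0.34, adjusted p = 5.2e-07). Olah, the thioesterase that releases medium-chain fatty acids, fell from 8.73 ± 2.87 to 0.190 ± 0.222 CPM (-5.04 ± 0.70, adjusted p = 7.5e-07). The list held proteins that other organs also secrete.

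The genes of milk fat and lactose synthesis were split, with 9 of 22 tested members lower, 5 higher and a median of -0.13 in KO mTEChi. All tested genes had 28.0% lower and 25.7% higher there. Acaca (acetyl-CoA carboxylase, -1.63 ± 0.14), Lpl (lipoprotein lipase, -1.64 ± 0.17) and Gpam (glycerol-phosphate acyltransferase, -1.51 ± 0.16) fell, with adjusted p of 2.0e-10, 4.2e-09 and 5.7e-09, and the glucose transporter gene Slc2a1 rose (0.80 ± 0.10, adjusted p = 7.4e-08). Of 18 mammary epithelium genes 10 fell and 3 rose, beside the same shares of all tested genes, with a median of -0.97. Krt19, a keratin of simple epithelia, fell from 54.02 ± 9.66 to 13.5 ± 2.46 CPM (-2.06 ± 0.19, adjusted p = 6.2e-10), Cd14, a coreceptor for bacterial lipopolysaccharide, fell from 27.0 ± 3.72 to 6.93 ± 1.82 CPM (adjusted p = 2.0e-06), and the receptor gene Kit rose from 179 ± 13.3 to 306 ± 24.4 CPM (0.75 ± 0.11, adjusted p = 1.5e-06). The fourth was Mucl1, given above. In mTEClo, where 9.69% of all tested genes were called lower and 12.0% higher, the lists had 5 lower and 1 higher among other milk proteins, 4 and 4 among fat and lactose genes, 2 and 4 among regulators, and 2 and 1 among mammary epithelium genes. Whether these counts differ between the gates was not tested.

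**Figure D5:**
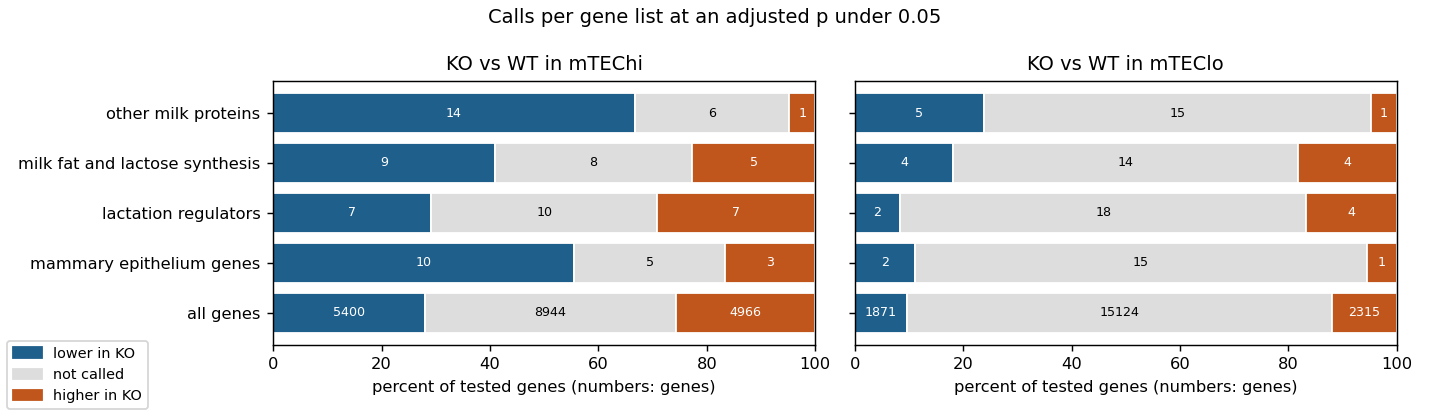
Stacked bars of the percent of tested genes called lower (left), not called (middle) or called higher (right) in KO at an adjusted p under 0.05, by gene list and for all 19310 tested genes, in mTEChi and mTEClo. The numbers in the bars count genes. In KO against WT mTEChi 14 of 21 other milk proteins were lower and 1 higher, beside 28.0% and 25.7% of all genes.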

How the data were processed

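Total RNA of sorted mTECs was sequenced in 23 libraries, primed per the labels with oligo dT and NSR primers and tagmented with Tn5. The authors deposited counts per Ensembl gene and a normalized table of unit signal. The submitters' processing notes name HTSeq 0.11.2, STAR 2.7.3a and fastp 0.20.0, further Picard 2.21.1, SAMtools 1.9 and an edgeR of unnamed version, with the builds mm10 and GRCm38. Their settings are not given in the sources used here. Each value of the normalized signal table deposited by the authors was a count divided by 1 factor per library, and it was used in an alternative only, as log2(value + 1) in limma 3.58.1.

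The members, gene lists and alternatives were chosen with earlier results of these data known. Genes named were the 8 members, up to 4 of each list by smallest adjusted p, the neighbours by gene order and the 5 genes most like Csn2 (log2 CPM with a prior count of 2). Counts were filtered by group with filterByExpr (minimum count 10), which left 19310 genes, scaled with TMM and fitted in edgeR 4.0.16 (R 4.3.3, robust quasi-likelihood) over all 23 libraries with terms for group and sex. A call is a Benjamini-Hochberg adjusted p under 0.05 over all tested genes, tested on simulated data beforehand. Gene models were from GENCODE vM21 of the same build, with all 53402 identifiers matched. A group at 0 was given 3 counts over the group, and ratios resting on 1 to 3 counts have exact 95% intervals. Totals of 1602125 to 3938588 counts limit what can be seen of genes near 0.

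Whether replicate numbers pair libraries was checked by the correlation of deviations from the group means. It was 0.14 to 0.22 for the 4 pairs of KO mTEClo and KO mTEChi libraries, all over 0.1, so a block was added for the KO gates after seeing the data. These KO pairs also share age and sex, so the correlation does not show that they came from the same mice. For the 7 WT pairs it was -0.11 to 0.07, and 4 of them differ in age or sex. The labels do not say what the numbers pair. Alternatives were RLE and upper quartile factors, no filter and a minimum count of 5, stricter calls, other covariates, a replicate block, fits of male libraries alone, without the libraries under 2000000 counts or of the compared groups alone, DESeq2 1.42.0, limma and leaving out each library. The fits without the 6-week KO libraries and with the KO block were added after seeing the data.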

Additional observations from a re-analysis of the deposited data

Results flagged for a closer look

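Among 24 sets of a member's libraries in 1 group, 3 had a library far from the others by Dixon's 95% limit. That limit is made for normally distributed values, and many of these sets hold few counts and zeros. The number flagged can therefore not be set against a chance rate. Csn1s2a stood at 2.38 CPM in KO mTEClo replicate 3 (8 counts) and at 0 in the other 3 libraries of that group. Wap stood at 1.88 CPM in KO mTEClo replicate 2, and the next library was at 0.298. Glycam1 stood at 6.20 CPM in WT mTEChi replicate 1, and the next was at 2.86.

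The effect of Aire loss differed between the gates for 3 members by the contrast of both effects in edgeR. The log2 difference, mTEChi minus mTEClo, was -6.61 for Csn1s1 (adjusted p = 1.8e-08), with a KO effect of -4.93 in mTEChi and 1.68 in mTEClo. It was -7.86 for Csn1s2a (adjusted p = 9.3e-05), with effects of -6.87 and 0.99. For Csn2 it was -0.79 (adjusted p = 0.038), with effects of 0.12 and 0.91, of which the call in mTEClo and not that in mTEChi passed.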

How the results depend on the processing

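The falls of Csn1s1 and Csn1s2a in KO mTEChi and the higher levels of Csn1s1, Csn1s2a, Csn2 and Csn3 in WT mTEChi than in WT mTEClo kept direction and call under every alternative that tested them. Leaving out each library in turn gave -5.32 to -4.57 for Csn1s1 and -7.84 to -6.52 for Csn1s2a in KO mTEChi.

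Signs turned for members near 0 or near no change. Csn2 in KO mTEChi was -0.01 with upper quartile factors. With age in the fit Csn3 in KO mTEClo was -0.28. With limma Csn1s2a in KO mTEClo was -0.15. With the replicate block, Csn1s2a in female against male WT was 1.01 and 5 genes were called there in place of 8. Whether the replicate numbers pair libraries is not known. The blocked fit of the KO libraries alone called 0 members lower in mTEChi. Without the 6-week KO libraries Csn1s2a and Csn3 in KO mTEClo were -3.08 and -3.16, Csn1s2a and Wap in mTEChi against mTEClo of KO were 3.34 and -0.45, and the Csn3 difference between gates was 1.77. Leaving out single libraries gave -3.12 to 1.60 for Csn1s2a and -0.30 to 0.95 for Csn3 in KO mTEClo, and -2.14 to 2.91 for Csn1s2a between the KO gates. The cause was not tested.

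In all, 10366 genes were called in KO mTEChi, 4186 in KO mTEClo, 13541 between the WT gates, 11039 between the KO gates and 4792 for the difference. At an adjusted p under 0.01, KO mTEClo had 2240 and the difference 2856. With a change over 2-fold as well, the counts were 4492, 1506, 6937, 6779 and 2614, and 1 member was higher in KO mTEClo. With age in the fit, 1504 genes were called in KO mTEClo. Members called higher in KO mTEClo numbered 1 in place of 2 with age, with limma, in the fit of the compared groups alone, without the 6-week KO libraries, and 1 to 2 when single libraries were left out. Members higher in KO mTEChi numbered 1, Csn2, with age, with a term for the libraries under 2000000 counts and without them. Members lower in KO mTEChi than in KO mTEClo numbered 0 in the fit of the compared groups and without the 6-week libraries. The Csn2 difference between gates lost its call in 9 of 23 fits without 1 library (WT mTEClo replicates 3, 4 and 6, and replicates 1 and 2 of each other group), with a range over all 23 of -0.97 to -0.63 and an adjusted p of 0.01 to 0.1. The Wap difference passed in 6 of the 19 such fits that tested Wap (-4.54 to -2.18, adjusted p 0.021 to 0.5), and with DESeq2, limma, upper quartile factors and the term for low totals. Depth limits Csn1s2b, Lalba and Glycam1, which had at most 35 counts in a group.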
